A study of Mus musculus with 11 samples.

Results

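The genes described here are 7 enzymes of cholesterol synthesis, Hmgcs1, Idi1, Fdps, Fdft1, Sqle, Lss and Cyp51, together with Insig1, which encodes a regulator of the pathway. They were taken by gene symbol from the merged table of raw counts of whole distal tibiae, and all 8 are among its 22600 genes. All 8 also passed the filter on low counts, which kept 16496 genes for testing. The comparison asks whether the level of these transcripts in whole bone differs when bone marrow adipocytes (BMAds) are depleted. Levels are given as CPM (a gene's counts scaled to the library size, itself adjusted by TMM), and differences as log2 fold changes of BMAd-DTA mice over controls.

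The libraries came from 4 control and 7 BMAd-DTA mice, 1 library per mouse, all 24 weeks old, fed ad libitum and of a mixed background labelled C57BL6/SJL. BMAd-DTA mice carried Osterix-FLPo, a FLPo-dependent Adipoq-Cre allele (FAC) and ROSA-DTA, in which Cre removes a STOP cassette and so switches on diphtheria toxin A. By the methods of the study, the controls, labelled BMAd-WT, also carried Osterix-FLPo and FAC, so both groups share the Cre cassette inserted at the 3′ end of Adipoq, and mice with this allele have low adiponectin. The model acts where Osterix and Adipoq have both been expressed, its efficiency rises with age, and some adipocytes remain in the distal tibia. Whole bone was powdered with its marrow, so the RNA is a mixture of hematopoietic, bone, stromal and fat cells. Skeletal muscle transcripts were also present, possibly from attached tissue.

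Cells make cholesterol from acetyl-CoA through mevalonate, the isoprenoid diphosphates, squalene and lanosterol. The genes of these steps are switched on together by SREBP2, a transcription factor held in the endoplasmic reticulum with its escort SCAP while sterols are plentiful. The INSIG proteins provide that retention, and when membrane sterols fall the SCAP-SREBP2 complex moves to the Golgi, where 2 proteases release the active factor. Insig1 is itself a target of the factor, which closes a feedback loop. In bone, sterol synthesis and the isoprenoid branch are best known through osteoclasts, in which the nitrogen-containing bisphosphonate drugs block the product of Fdps.

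The promoters of 3 of the genes are shown as stretches of DNA upstream of their starts. Whether SREBP2 acts through these stretches was not measured here. Hmgcs1 was chosen as the gene whose level followed those of the others most closely across the mice, Insig1 as the one that followed them least, and Lss as an enzyme between them. The sequences are the stretches upstream of the RefSeq transcription start on GRCm38.p6, shortened where GENCODE M21 starts a transcript earlier, and all are on the plus strand. Capitals mark TCACNCCAC, a sterol-regulatory-element-like motif, and CCAAT on the other strand, read here as ATTGG.
Hmgcs1, chr13:119690101-119690350: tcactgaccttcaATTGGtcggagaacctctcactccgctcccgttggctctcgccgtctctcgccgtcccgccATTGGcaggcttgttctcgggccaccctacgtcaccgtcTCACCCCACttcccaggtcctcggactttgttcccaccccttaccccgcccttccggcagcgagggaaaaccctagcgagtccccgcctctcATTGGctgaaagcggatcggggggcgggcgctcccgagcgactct
Lss, chr10:76531355-76531587: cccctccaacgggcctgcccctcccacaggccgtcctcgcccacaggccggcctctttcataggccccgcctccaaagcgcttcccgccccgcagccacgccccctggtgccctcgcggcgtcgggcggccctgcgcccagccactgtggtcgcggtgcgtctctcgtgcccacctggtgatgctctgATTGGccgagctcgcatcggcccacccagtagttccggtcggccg
Insig1, chr5:28071162-28071362: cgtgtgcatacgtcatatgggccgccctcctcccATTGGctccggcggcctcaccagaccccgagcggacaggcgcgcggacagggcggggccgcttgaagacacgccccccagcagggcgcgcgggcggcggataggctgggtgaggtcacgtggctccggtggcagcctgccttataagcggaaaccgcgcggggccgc

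In the Hmgcs1 promoter the sterol-element-like motif lies at bases 137 to 129 before the start, and 3 CCAAT boxes flank it. The motifs were searched on both strands of the full 250 bases before the RefSeq start. Such windows were found for Hmgcs1, Lss, Cyp51, Idi1 and Insig1. The sterol-element-like motif was present in 1 of these 5 windows, and in 1.05% of the 32851 windows of all promoters. CCAAT was present in all 5, against 33.8% of all windows, and the GC box GGGCGG was also in all 5, against 32.7%. In the stretches shortened at the GENCODE start, Cyp51 and Idi1 held no CCAAT, and Idi1 held no GGGCGG. Of the 16 sterol synthesis genes with a window, out of 21, 15 held CCAAT and 15 held GGGCGG. The CCAAT and GC box motifs can share their G bases where they adjoin, and a match describes these letters in this window only.

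No difference between the genotypes was detected in any of the 8 genes. In the edgeR quasi-likelihood fit, with p-values adjusted by Benjamini-Hochberg across the whole table, 0 of 8 had an adjusted p under 0.05, where 0.0788% of all genes (13, of which 12 were higher in BMAd-DTA mice) did so. Adjusted p-values of the 8 genes ran from 0.527 to 0.975, and 0 of 8 had an unadjusted p under 0.05, against 16.4% of all genes. DESeq2 also called 0 of 8, against 5.42% of the genes it adjusted, with 0 of 8 at an unadjusted p under 0.05. In 0 of 8 genes did the groups fail to overlap in CPM, against 2.81% of all genes.

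The size of the intervals says more than these counts. The 95% interval of the log2 fold change held 0 for all 8 genes, and for 6 of them it lay within 0.5 on the log2 scale on either side of 0, the exceptions being the less abundant Idi1 and Fdps. The fitted difference was lower in BMAd-DTA mice for 6 genes and higher for 2, with a median of -0.07, beside a median of 0.0018 over all genes tested and an interquartile range of -0.13 to 0.15. These are descriptions, since a median of several genes varies less than single genes do. A p that misses the threshold does not show equal levels, and the interval of each gene is given with its values.

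**Figure D1:**
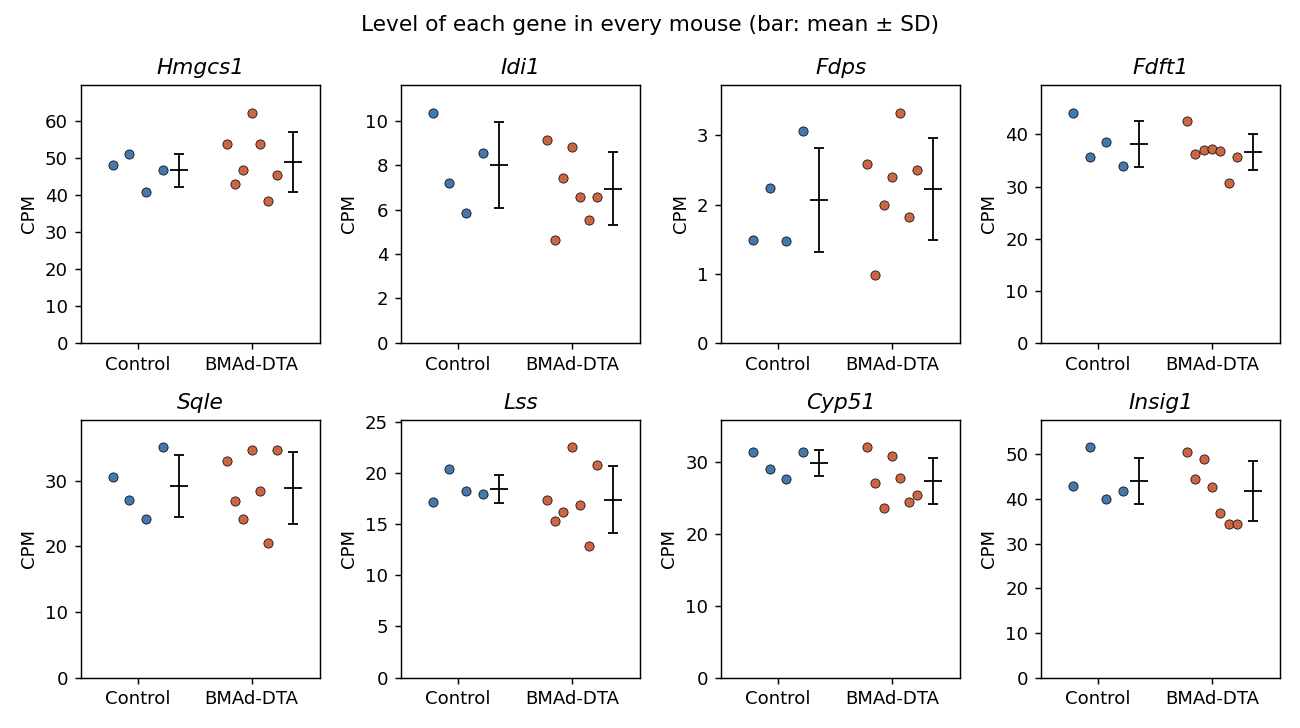
CPM on TMM-scaled library sizes (y axes, each from 0) of the 8 genes in every mouse (points, Control and BMAd-DTA), with bars for the mean and SD of each group. The ranges of the 2 groups overlap for every gene.

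Hmgcs1, on chromosome 13 (119690379-119708260, plus strand, GRCm38), encodes the cytosolic synthase that joins acetyl-CoA and acetoacetyl-CoA to HMG-CoA, the precursor of mevalonate. Its level was 48.2, 51.1, 40.7 and 46.7 CPM in the 4 controls, and in the 7 BMAd-DTA mice it ran from 38.2 through a median of 46.6 to 62.2 CPM. The controls lay inside the BMAd-DTA range, with 3 BMAd-DTA mice over the highest control and 1 under the lowest. The mean was 46.6 ± 4.39 CPM (SD, n = 4) in controls and 48.9 ± 8.06 CPM (SD, n = 7) in BMAd-DTA mice, a log2 fold change of 0.07 with an SE of 0.119 (edgeR, adjusted p = 0.824). The 95% interval reached from 0.879-fold to 1.25-fold.

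Idi1, also on chromosome 13 (8885501-8892451, plus strand), encodes the isomerase that converts isopentenyl diphosphate into dimethylallyl diphosphate. It was one of the 2 rarest of the genes, with 81 to 188 counts per library. Controls were at 10.4, 7.18, 5.85 and 8.56 CPM, and BMAd-DTA mice between 4.64 and 9.13 CPM with a median of 6.55 CPM. The highest value of all was a control and the lowest a BMAd-DTA mouse, and 2 of 7 BMAd-DTA mice lay under the lowest control. Means were 7.99 ± 1.93 CPM (SD, n = 4) and 6.95 ± 1.64 CPM (SD, n = 7), and the log2 fold change was -0.20 with an SE of 0.201 (edgeR, adjusted p = 0.676). Its interval, from 0.643-fold to 1.17-fold, was the widest after that of Fdps.

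Fdps, on chromosome 3 (89093588-89101959, minus strand), encodes farnesyl diphosphate synthase, which stands where sterol synthesis parts from protein prenylation. It was listed at 1.49, 2.24, 1.48 and 3.06 CPM in controls, and at 0.974 to 3.33 CPM in BMAd-DTA mice with a median of 2.40 CPM. The BMAd-DTA mice spread beyond the controls on both sides, 1 below and 1 above. The log2 fold change was 0.11 with an SE of 0.310 (edgeR, adjusted p = 0.907), and the 95% interval, 0.678-fold to 1.71-fold, was the widest of the 8.

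These Fdps counts, 17 to 59 per library, leave out any pair that could also be placed in another gene, and how many such pairs there were was not measured. The gene model Gm43738, on the same strand, covers 26.7% of the exon bases of Fdps and 77.3% of the 50-base windows of its longest coding transcript (1382 bases), and itself has 0 counts in every library. A pair that fits both genes is set aside as ambiguous. A further class of copies elsewhere in the genome, among them Gm3571, Gm5873 and Gm8163, shares 51.1% of the windows, and in all 86.4% occur in some other gene. Windows shared with genes elsewhere were 21.3% for Idi1 and 10.9% for Fdft1, 2.49% for Insig1 and 0.155% for Cyp51, and none for Hmgcs1, Sqle and Lss. The level of Fdps is therefore uncertain against that of the other genes, and its value here is that of the reads that could be placed.

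Fdft1, Sqle and Lss carry the pathway from farnesyl diphosphate to lanosterol. Fdft1 (chromosome 14, 63145150-63179578, minus strand) encodes squalene synthase, the first enzyme committed to sterols. It was at 44.2, 35.7, 38.6 and 34.0 CPM in controls and between 30.6 and 42.6 CPM in BMAd-DTA mice, with a median of 36.9 CPM. Both extremes were single mice, Control 1 at the top and BMAd-DTA 6 at the bottom, and 6 of 7 BMAd-DTA mice lay inside the control range. Means were 38.1 ± 4.47 CPM (SD, n = 4) and 36.6 ± 3.49 CPM (SD, n = 7), with a log2 fold change of -0.06 and an SE of 0.092 (edgeR, adjusted p = 0.804). Its interval, from 0.836-fold to 1.10-fold, was among the tightest.

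Sqle (chromosome 15, 59315077-59331192, plus strand) encodes squalene epoxidase, an oxygen-requiring step that is known as a second point of control. Controls were at 30.6, 27.1, 24.2 and 35.1 CPM, and BMAd-DTA mice ran from 20.5 through a median of 28.4 to 34.7 CPM. A single BMAd-DTA mouse fell outside the control range, below it. Means were 29.3 ± 4.71 CPM (SD, n = 4) and 28.9 ± 5.46 CPM (SD, n = 7), the closest pair of the 8 genes as a ratio, with a log2 fold change of -0.02 and an SE of 0.148 (edgeR, adjusted p = 0.975). The interval was 0.792-fold to 1.23-fold.

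Lss (chromosome 10, 76531588-76557138, plus strand) encodes lanosterol synthase, which closes the rings of the sterol skeleton. Controls were held between 17.1 and 20.4 CPM (17.1, 20.4, 18.3 and 17.9), whereas BMAd-DTA mice ran from 12.9 through a median of 16.9 to 22.5 CPM. The BMAd-DTA mice lay on both sides of the controls, 4 below all of them and 2 above. Means were 18.4 ± 1.41 CPM (SD, n = 4) and 17.4 ± 3.28 CPM (SD, n = 7), with a log2 fold change of -0.08 and an SE of 0.134 (edgeR, adjusted p = 0.813). The interval was 0.772-fold to 1.15-fold.

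Cyp51 (chromosome 5, 4081145-4104746, minus strand) encodes lanosterol 14-alpha-demethylase, the cytochrome P450 that begins the steps from lanosterol to cholesterol. Its controls were close together, at 31.5, 29.0, 27.7 and 31.4 CPM, and the BMAd-DTA mice ran from 23.5 through a median of 27.1 to 32.1 CPM. With 4 BMAd-DTA mice under the lowest control and 1 over the highest, it had the smallest p of the 8 genes. Means were 29.9 ± 1.85 CPM (SD, n = 4) and 27.3 ± 3.19 CPM (SD, n = 7), a log2 fold change of -0.13 with an SE of 0.093 that did not pass (edgeR, unadjusted p = 0.185, adjusted p = 0.527). The interval was 0.795-fold to 1.05-fold.

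Insig1 (chromosome 5, 28071363-28078662, plus strand), the feedback brake, had levels of 42.8, 51.5, 40.0 and 41.7 CPM in controls. In BMAd-DTA mice it ran from 34.3 through a median of 42.7 to 50.6 CPM. The 3 BMAd-DTA mice numbered 5 to 7 lay below every control, and the other 4 lay within the control range. Means were 44.0 ± 5.15 CPM (SD, n = 4) and 41.7 ± 6.73 CPM (SD, n = 7), with a log2 fold change of -0.08, an SE of 0.121 and an interval of 0.791-fold to 1.14-fold (edgeR, adjusted p = 0.809).

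To compare the genes with one another, CPM was divided by the kilobases of merged exons. On this scale of level per length, Insig1 was highest at 13.8 ± 1.95 CPM per kilobase (SD over the 11 mice), followed by Hmgcs1 at 10.5 ± 1.48 and Fdft1 at 8.79 ± 0.883. Cyp51 was at 6.40 ± 0.673 and Sqle at 5.24 ± 0.895 CPM per kilobase. Idi1 at 2.09 ± 0.494, Lss at 1.65 ± 0.251 and Fdps at 0.516 ± 0.168 CPM per kilobase closed the order. The place of Fdps is uncertain, since 86.4% of its windows occur in some other gene and only reads that could be placed were counted. The regulator was thus more abundant per length than the listed enzymes, with Fdps uncertain. Other enzymes of the pathway were not placed on this scale. The levels did not follow the order of the steps, with or without Fdps.

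The order was steady within mice. Insig1 exceeded Hmgcs1, Fdft1 exceeded Cyp51, Sqle exceeded Idi1 and Lss exceeded Fdps in 11 of 11 libraries, while Hmgcs1 over Fdft1 and Cyp51 over Sqle held in 10 of 11 each. Idi1 over Lss held in 8 of 11 and turned round when the longest annotated transcript replaced the merged exons (2.42 and 2.54 CPM per kilobase). Across mice the ranges of neighbours overlapped, except between Sqle and Idi1 and between Lss and Fdps. The comparisons with Fdps cover only its reads that could be placed.

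**Figure D2:**
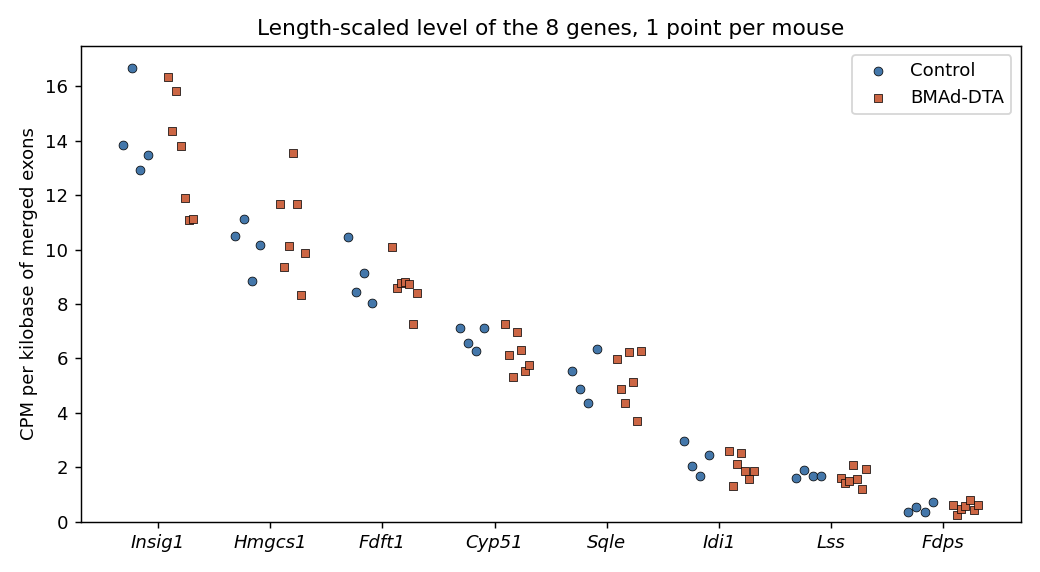
Level per length of the 8 genes (CPM per kilobase of merged exons, y axis from 0) in each mouse, circles for the 4 controls and squares for the 7 BMAd-DTA mice, genes in falling order of the mean. Insig1 and Hmgcs1 lie highest, and Fdps, counted only from reads that could be placed, lies lowest. Circles and squares share their range for every gene.

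The genes differed in how much they varied among the 11 mice. The coefficient of variation of CPM was 10.05% for Fdft1, 10.5% for Cyp51, 14.1% for Hmgcs1, 14.2% for Insig1, 15.2% for Lss and 17.1% for Sqle. Counting error alone would give 3.42% to 5.63% for these 6 genes, and the rest of their spread covers the mice as well as dissection, extraction and library preparation, which were not measured apart. Idi1 reached 23.7% with 8.76% from counting, and Fdps 32.6% with 16.1% from counting. The highest mouse exceeded the lowest 1.36-fold for Cyp51 and 3.42-fold for Fdps.

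Part of this variation was shared among the genes and ran across the genotypes. BMAd-DTA 6 was the lowest of all 11 mice in 5 of 8 genes (Hmgcs1, Fdft1, Sqle, Lss and Insig1), and BMAd-DTA 2 in Idi1 and Fdps. The mean of the standardised log2 CPM of the 8 genes was lowest in BMAd-DTA 6 (-1.44), BMAd-DTA 2 (-0.75) and Control 3 (-0.46), and highest in BMAd-DTA 4 (0.86) and BMAd-DTA 1 (0.89). Both ends of that order were thus BMAd-DTA mice, with the other controls at 0.34 to 0.48. The summed level of the 8 genes ran from 197 to 226 CPM in controls and from 168 to 241 CPM in BMAd-DTA mice.

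Each gene was set against the mean of the other 7 over the 11 libraries, as a description, since the libraries share their depth, scaling and tissue mixture. Hmgcs1 followed the others most closely (Pearson's r = 0.80), then Idi1 (0.77), Sqle (0.73), Cyp51 (0.71) and Lss (0.62). Fdft1 was at 0.50, and Fdps and Insig1 were lowest at 0.35 and 0.34. Without BMAd-DTA 6, a choice made after the data were seen, Idi1 kept 0.80, Hmgcs1 0.71 and Cyp51 0.64. Sqle was then at 0.55, Fdps at 0.39, Lss at 0.33, Fdft1 at 0.17 and Insig1 at 0.05. The shared movement of Hmgcs1, Idi1 and Cyp51 was therefore present in the other 10 mice, and that of Fdft1, Lss and Insig1 rested largely on 1 mouse.

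Genes outside the set were ranked by likeness to the mean of the 8, among 12966 that averaged 50 counts or more. Among the 5 most alike were Gm26947 (r = 0.88 over 11 libraries), Msmo1, the sterol C4-methyl oxidase that acts after Cyp51 (0.88), Atp7a, a copper transporter (0.87), and Rps6kb1, the S6 kinase (0.86). Without BMAd-DTA 6 the value of Msmo1 was 0.78, with a rank of 34. Being among the highest of so many, these values are descriptions only. After removal of each group's mean, Msmo1 was at 0.89 and Atp7a at 0.90. Over the 11 libraries, sterol synthesis genes other than the 8 ran from -0.31 (Pmvk) to 0.88 (Msmo1), so the pathway did not follow as a whole.

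**Figure D3:**
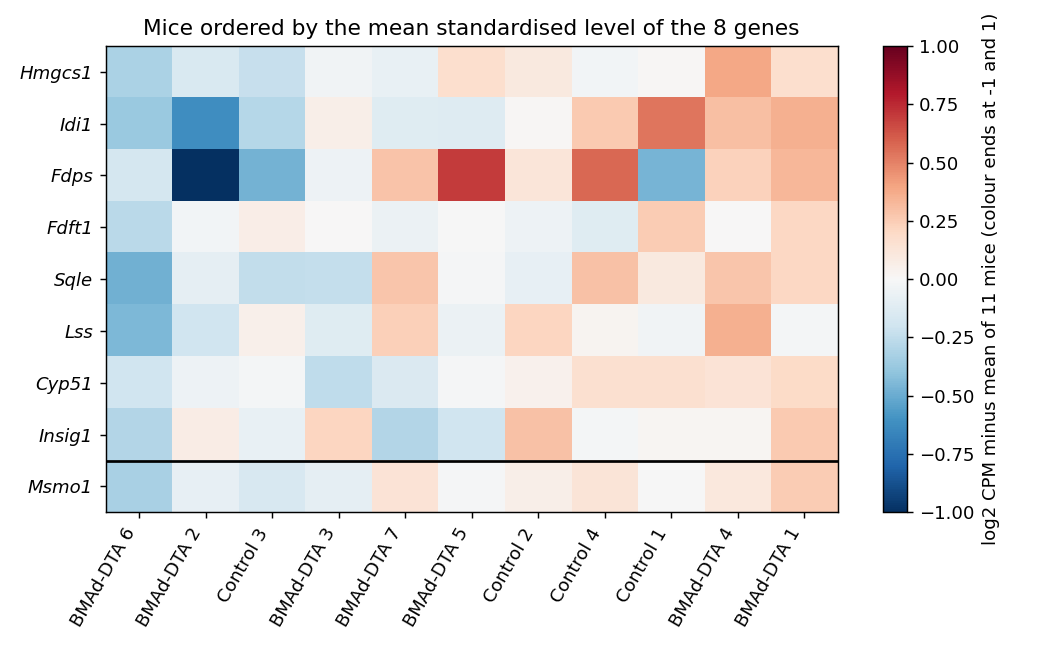
Log2 CPM minus the mean of the 11 mice (colour; the scale ends at -1 and 1) for the 8 genes and, below the line, Msmo1, with mice ordered by the mean standardised level of the 8 genes. BMAd-DTA mice stand at both ends, and BMAd-DTA 6 is low in every row.

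The summed level of 12 skeletal muscle genes was 1050 CPM in BMAd-DTA 6 and 1351 CPM in Control 3, against 18.0 to 627 CPM in the other mice. These transcripts may have come with attached tissue, which was not measured. BMAd-DTA 6 and Control 3, with the highest muscle sums, were both low in the order of the mice, as was BMAd-DTA 2 with 19.9 CPM. With a muscle score as a covariate the median log2 fold change of the 8 genes was -0.06, and 0 of 8 passed. Without BMAd-DTA 6 it was -0.02, and again 0 of 8 passed. The part of the tissue mixture in the order of the mice was not tested.

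No gene of the whole sterol synthesis pathway passed either. Of its 21 genes, 12 were fitted higher and 9 lower in BMAd-DTA mice, the median of their log2 fold changes was 0.04, and 0 passed an adjusted p of 0.05 (edgeR). At an unadjusted p under 0.05 (edgeR) there was 1, Lbr, which DESeq2 also called, against 16.4% and 5.42% of all genes. Among the mevalonate steps the largest value was that of Mvd, the decarboxylase that makes isopentenyl diphosphate, at 0.22 (edgeR, adjusted p = 0.308), and 5 of 7 BMAd-DTA mice exceeded the highest control. Msmo1 was at 31.7 CPM in both groups.

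Lbr, the lamin B receptor, is a sterol C14-reductase by sequence and also a protein of the nuclear envelope. It was at 326, 315, 288 and 273 CPM in controls and between 242 and 283 CPM in BMAd-DTA mice, 6 of which stayed under the lowest control. Its log2 fold change was -0.21 with an SE of 0.064 (edgeR, adjusted p = 0.127; DESeq2, adjusted p = 0.042). Its counterpart Tm7sf2, the reductase that acts at the same step, was at 0.05 (edgeR, adjusted p = 0.907).

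No gene of those that hold and release SREBP2 passed the test. Srebf2 itself, which encodes the factor and is one of its own targets, was at 192 ± 7.38 CPM (SD, n = 4) in controls and 195 ± 8.50 CPM (SD, n = 7) in BMAd-DTA mice, with a log2 fold change of 0.02 and an interval of -0.10 to 0.13 (edgeR, adjusted p = 0.905). Of the 10 genes of SREBP processing, Insig1 among them, 5 were fitted higher and 5 lower, and 0 passed by edgeR or DESeq2. Against 16.4% of all genes, 1 of the 10 had an unadjusted p under 0.05 (edgeR). That was Rnf139, a ubiquitin ligase of this membrane complex, at -0.26 (edgeR, adjusted p = 0.223). Scap was at 0.07 and Insig2, the second INSIG gene, at 0.15. Transcript levels do not measure cleavage of the factor.

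Sterol uptake was covered by 8 tested genes. In this list 0 of 8 passed by edgeR and 1 by DESeq2, while 4 had an unadjusted p under 0.05, against 0.0788%, 5.42% and 16.4% of all genes. The late endosomal cholesterol transporters Npc1 (0.28) and Npc2 (0.23) and the lysosomal lipase Lipa (0.22) were the higher ones, with adjusted p-values of 0.133, 0.131 and 0.263 (edgeR), and the lipoprotein receptor Scarb1 was the lower one at -0.21 (edgeR, adjusted p = 0.263). Npc2 was the gene called by DESeq2 (adjusted p = 0.047). Of 10 genes of efflux, storage and LXR signalling 0 passed by edgeR or DESeq2 and 0 had an unadjusted p under 0.05, and of 9 genes of the isoprenoid branch 0 passed by either, with Fntb alone at an unadjusted p under 0.05 (-0.29).

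**Figure D4:**
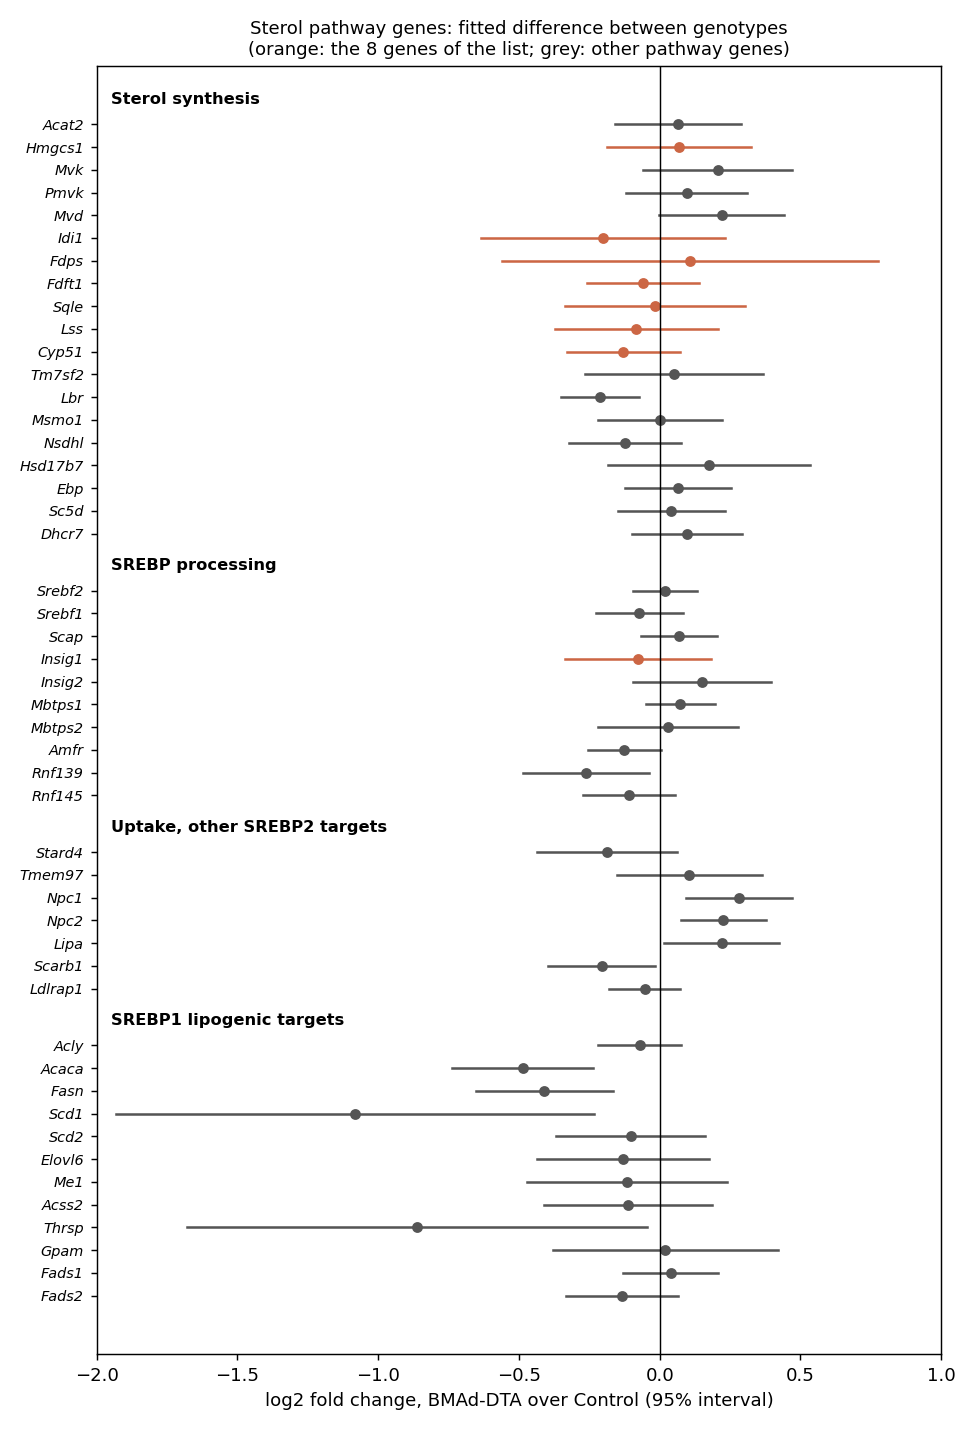
Fitted log2 fold change of BMAd-DTA over Control (points) with its 95% interval (lines) for genes of sterol synthesis, SREBP processing, sterol uptake and SREBP1-driven lipogenesis, the 8 genes described here in orange. The 8 orange intervals all cross 0, and the values furthest below 0 are those of the lipogenic genes Scd1 and Thrsp.

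The fatty acid branch of the SREBP family is given beside these values. Of 12 genes known as lipogenic targets of SREBP1, 10 were fitted lower and 2 higher, and the median of their log2 fold changes was -0.12. By edgeR 0 of 12 passed and 4 had an unadjusted p under 0.05, and DESeq2 called 2, against 0.0788%, 16.4% and 5.42% of all genes. Acaca, the carboxylase that makes malonyl-CoA, was at 70.8, 62.1, 51.1 and 54.2 CPM in controls and between 33.4 and 49.5 CPM in BMAd-DTA mice, with no overlap (log2 fold change -0.49, SE 0.116; edgeR, adjusted p = 0.077; DESeq2, adjusted p = 0.0055). Such a lack of overlap held for 1 of the 12 genes, against 2.81% of all genes. The interval of Acaca was -0.74 to -0.24. As Acaca was chosen after its value was seen, this interval is no test against those of the 8 genes. Fasn, the fatty acid synthase, was at -0.41 (edgeR, adjusted p = 0.106; DESeq2, adjusted p = 0.021) and Scd1, the stearoyl-CoA desaturase abundant in adipocytes, at -1.08 (edgeR, adjusted p = 0.185). The difference between the 2 lists was not tested.

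Markers of the cells that make up the tissue are set beside these genes. Summed over 12 markers, adipocyte transcripts ran from 1373 to 2197 CPM in controls and from 654 to 1598 CPM in BMAd-DTA mice. All 12 were fitted lower, and 1 (Retn) was past an adjusted p of 0.05 (edgeR), against 0.0788% of all genes. The 14 genes of cycling cells summed to 3832 to 5325 CPM in controls and 2812 to 3732 CPM in BMAd-DTA mice, and 10 osteoblast genes to 1910 to 7824 CPM and 9831 to 21014 CPM. For the last 2 lists the sums did not overlap between the groups, whereas the summed levels of the 8 genes did. Taken singly, the groups did not overlap for 0 of 14 cycling genes and 3 of 10 osteoblast genes, against 2.81% of all genes. By edgeR, all 14 cycling genes (lower) and all 10 osteoblast genes (higher) had an unadjusted p under 0.05, against 16.4% of all genes. DESeq2 called 11 and 7 of them, against 5.42% of all genes. Of the 12 adipocyte genes, 2 did not overlap, 7 had an unadjusted p under 0.05 (edgeR) and DESeq2 called 3. The most abundant genes of these sums were Mki67 (mean 1701 CPM) and Col1a1 (mean 9363 CPM). In whole bone, fewer cells of a type and less RNA per cell cannot be told apart, and which cells the transcripts of the 8 genes came from was not measured.

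The libraries were alike in depth. Total counts in genes were 16969529 to 18637663 per library, the total pairs 24174541 to 25894266, and the common biological coefficient of variation was 0.202. The other marker lists overlapped between the groups, with erythroid genes at 3250 to 6634 CPM in controls and 3454 to 5428 CPM in BMAd-DTA mice, neutrophil precursor genes at 2948 to 4318 and 2801 to 5125 CPM, mature neutrophil genes at 19458 to 24240 and 16495 to 23320 CPM, B lymphocyte genes at 373 to 863 and 615 to 1469 CPM, and macrophage genes at 1643 to 1747 and 1639 to 1926 CPM.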

How the data were processed

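Stranded, paired-end libraries were made from whole distal tibiae, 4 of controls and 7 of BMAd-DTA mice. Per the labels and the methods, the authors checked reads with FastQC 0.11.9, aligned them to mm10 with STAR, checked alignments with QualiMap, and analysed counts with DESeq2. The deposited values are raw counts of read pairs per gene that had not been normalized; this was the only unit. The annotation release is not given in the sources used here. GENCODE M21 (GRCm38) gave positions and exon lengths and matched 99.89% of identifiers.

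The merged table holds 22600 of the 55401 genes of the per-library tables, with at least 11 counts over all libraries, and equals their read-strand column, which held 95.9% to 96.3% of stranded counts. Lines that name no gene were left out: unmapped pairs were 9.10% to 15.1%, multimapping 6.68% to 9.07%, no feature 6.58% to 8.44% and ambiguous 1.49% to 1.70% of pairs.

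The main test was the quasi-likelihood test of edgeR 4.0.16 under R 4.3.3 (genes filtered with filterByExpr by group, TMM scaling, dispersions from estimateDisp, fit with glmQLFit and test with glmQLFTest, two-sided, Benjamini-Hochberg adjustment over 16496 genes, threshold 0.05), in place of the authors' DESeq2. The SE is the log2 fold change over the square root of F, and intervals are 95%. Correlations used log2 CPM with a prior count of 2. Scripts were tested on simulated data. The genes and lists were chosen with earlier results of these data known. The text names the 8 genes, any gene of the synthesis, SREBP and uptake lists, the extremes of other lists and genes among the 5 most like the 8; Acaca, Fasn and the lipogenic Thrsp were chosen after their values were seen. Alternatives were DESeq2 1.42.0, limma-voom (limma 3.58.1), other scalings and filters, a muscle covariate, other count tables and leaving out each library. Promoters are from RefSeq (GRCm38.p6). No samples were left out; some single genes of the lists are counted with their list but not reported here.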

Additional observations from a re-analysis of the deposited data

How the results depend on the processing

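The count of 0 of 8 genes past an adjusted p of 0.05 held under all 21 alternatives, with a smallest adjusted p of 0.358 (edgeR, 1 library left out). The median log2 fold change of the 8 genes was -0.07 to -0.05 under the 10 alternatives that keep all libraries, and -0.10 (without Control 4) to -0.02 (without BMAd-DTA 6) with 1 left out. Of 167 recomputed log2 fold changes of single genes, 11 changed sign, and none of these passed the threshold. All were of genes whose value in the main fit was smaller than its SE. Sqle was at 0.0047 with counts taken without regard to strand. With 1 library left out, Sqle ranged from -0.093 to 0.084 (5 changes of sign), Fdps from -0.022 to 0.36 (3), Fdft1 from -0.11 to 0.019 (1) and Insig1 from -0.13 to 0.0075 (1). Fdps was not tested with a mean of at least 50 counts required.

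Over all genes the count at an adjusted p under 0.05 was 13 by edgeR, 845 by DESeq2, 20 with DESeq2 size factors, 20 by limma-voom and 3 with the muscle covariate. It ranged from 0 to 292 with 1 library left out: 0 without Control 1, Control 2, BMAd-DTA 1 or BMAd-DTA 6 (by edgeR, with at least 1784 genes at an unadjusted p under 0.05), 3 without BMAd-DTA 4, 8 without BMAd-DTA 3, 89 without Control 4 and 292 without Control 3. The cause was not tested. With the longest transcript in place of merged exons, levels were 15.8 CPM per kilobase for Insig1, 13.9 for Hmgcs1, 10.05 for Fdft1, 7.19 for Cyp51, 6.50 for Sqle, 2.54 for Lss and 0.735 for Fdps. No paired analysis was run, since the groups are different mice and the labels give no pairs. The number after each group name was assigned here, as the labels carry no replicate numbers. Counting error was largest for Fdps (16.1% of its level, 17 to 59 counts per library) and Idi1 (8.76%, 81 to 188 counts), below the spread between libraries of both (32.6% and 23.7%).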
